A study of Schmidtea mediterranea with 28 samples.

Results

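The transcripts described here, 5 of the 22944 in the deposited tables, encode parts of the splicing machinery of the planarian *Schmidtea mediterranea*. They were chosen by name and selected on their measured levels in the cell fractions of this same series, which differ among them, so their differences between fractions are a description and carry no test. A pair is named by their best human hit, *SNRPD2* (comp2994_c0_seq1) and *SF3B6* (comp11998_c0_seq1), and 3 by their KEGG entry, K12845 (comp1928_c0_seq1), K12834 (comp2656_c0_seq1) and K12877 (comp1217_c0_seq1). All but the *SF3B6* transcript are among the 77 core spliceosome transcripts listed by the study, which left out KEGG entries matched by more than 1 transcript. The 28 RNA-seq libraries hold polyadenylated RNA of 9 whole-worm samples and of 19 samples of sorted cells (7 X1, 4 X2 and 8 Xins). The sort was by DNA content and by staining with calcein, a cytoplasmic dye. X1 cells have replicated DNA and are mostly stem cells (neoblasts), and cells with unreplicated DNA were gated as X2, mostly neoblast progeny, where calcein was low and as Xins, which are differentiated, where it was high. All worms were of an asexual laboratory strain derived clonally from 1 individual. The RNAi worms received each dsRNA at 1 µg per µl on 3 days, were kept at 20 °C and were taken 10 days later. Mixtures against several genes thus held more dsRNA in all. No temperature is given for the wild type worms. Control worms received dsRNA against GFP, which planarians lack, where appropriate at the highest concentration of the knockdown groups. In sorted cells the knockdowns were of *bruli*, a CELF-family gene, or of 4 muscleblind-like genes together (*mbnl*), and the wild type worms had no RNAi. Each X1 or Xins RNAi group has 2 libraries and each X2 or whole-worm group 1, and worms without RNAi gave 1 library of X1, 1 of X2 and 2 of Xins. Whole worms were treated against *bruli*, *mbnl*, or the *celf*, *esrp*, *nova*, *ptbp*, *rbfox1* or *rbfoxs* genes, or with the control.

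The spliceosome removes introns from pre-mRNA. It is built anew on each intron from small nuclear ribonucleoprotein particles (snRNPs), each with a ring of Sm proteins around its RNA, and its SF3b complex binds the branch site of the intron. A particle of the U4, U6 and U5 snRNAs then joins, is rearranged and cuts the RNA, and an exon junction complex stays on the spliced message. The human counterparts of the 5 transcripts act at different points of this path. SNRPD2 is an Sm ring protein, SF3B6 and the product of K12834 (PHF5A) belong to SF3b, the product of K12845 (SNU13) binds U4 snRNA, and the product of K12877 (MAGOH) is a core exon junction protein. Neoblasts are known for abundant RNA-binding proteins and for cytoplasmic granules of RNA and protein, the chromatoid bodies.

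Counts summed to 12772545 to 34950244 a library, and 3 counts were 0.0858 to 0.235 in each 1000000. Levels below are CPM, the counts per 1000000 of the library size after TMM scaling of all 28 libraries together, and fold differences are log2 estimates of edgeR fits. The marker check followed the labels. The summed level of 4 neoblast markers (2 *PIWIL1* and 2 *DDX4* transcripts) was 4986 to 12331 CPM in X1, 1864 to 4230 in X2 and 339.8 to 709 in Xins, and that of 5 differentiation markers 38.6 to 56.4, 104.2 to 140.8 and 118.1 to 241 CPM, none being without counts in any group. One of the latter, the *ELAVL4* transcript comp10994, went the other way (log2 1.01 higher in X1 than Xins of knockdown cells). The sorted RNAi libraries numbered 1 and 2 by the labels stand apart from each other. The first had 15811388 to 25719013 counts and the second 26112135 to 34950244, and levels of single transcripts differed between them. The library total behind the deposited cRPKM was 1.16 to 1.30 times the count sum in the first and 1.00 times in the second. K12877 was higher in library 2 in all 6 groups, by log2 0.86 to 1.82, whereas transcripts of 500 to 1000 mappable positions, as long as it, had medians of −0.01 to 0.57. The *SF3B6* transcript was higher in library 2 in the 3 Xins groups (0.68 to 2.28), and the other 3 members were higher in some groups and lower in others. A cause of these shifts was not tested.

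**Figure D1:**
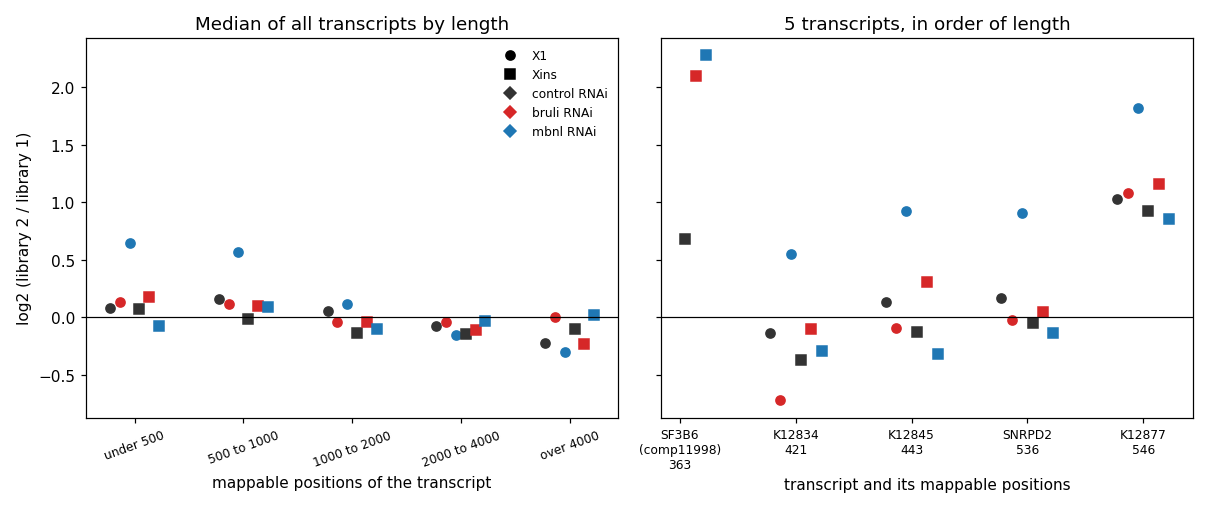
Log2 of library 2 over library 1 for each X1 (circles) and Xins (squares) RNAi group, coloured by treatment. Left, medians of all transcripts with at least 50 counts in both libraries, by number of mappable positions; right, the 5 transcripts, ordered by their number of mappable positions (printed under the names), with groups of 3 or fewer counts left out. All 6 points of K12877 lie above 0, from 0.86 to 1.82.

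*SNRPD2* was high in X1, intermediate in X2 and low in Xins. Unperturbed X1 libraries held 177.6, 200.1 (control 1 and 2) and 187.3 CPM (wild type), X2 libraries 103.1 and 84.2 CPM, and Xins libraries 23.0, 22.3, 20.4 and 18.1 CPM. No value of 1 fraction reached into another. Differences between unperturbed fractions were common, and edgeR called 10300 of 12665 transcripts for X1 against Xins. For X2 it called 5913 against X1 and 7977 against Xins. How many transcripts separated fully was not counted, so nothing is read from such separation about this or the other members. In knockdown libraries X1 held 73.8, 72.9 (*bruli*), 147.4 and 276.5 CPM (*mbnl*) against 19.5 to 22.4 in 4 Xins libraries, a log2 difference of 2.49 ± 0.32 (standard error). That value pools unlike treatments, with 1.87 ± 0.28 for *bruli* libraries alone and 3.22 ± 0.50 for *mbnl* libraries alone. X2 (62.0 and 149.0 CPM) was above Xins by 1.96 ± 0.35. X2 against X1 gave −0.54 ± 0.37, and the ranges overlapped. Among the 8 Xins libraries of all treatments *SNRPD2* varied from 18.1 to 23.0 CPM (mean 20.8 ± 1.66, SD), and among the 7 X1 libraries from 72.9 to 276.5.

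K12845 (SNU13 in human) had the steepest decline of the 5 from X1 to Xins. Unperturbed X1 libraries held 160.3, 176.0 and 160.4 CPM, X2 64.4 (control) and 45.7 (wild type), and Xins 15.4, 14.1, 11.7 and 16.6. The 3 fractions were apart in unperturbed libraries and remained so over all 19 sorted libraries. In knockdown cells X1 held 124.9, 117.3, 119.3 and 226.7 CPM and Xins 10.3 to 13.9, a log2 difference of 3.49 ± 0.26. X2 (51.7 and 86.0 CPM) lay between, at log2 2.24 ± 0.27 from Xins and −1.25 ± 0.30 from X1.

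K12834 (PHF5A in human) was high in X1 and X2 and low in Xins. Unperturbed levels were 90.0, 81.8 and 83.6 CPM in X1, 64.5 and 41.1 in X2, and 10.9, 8.43, 6.44 and 8.81 in Xins. The 3 fractions did not overlap, and the step from X2 to Xins was wider than that from X1 to X2. In knockdown cells X1 held 77.03, 46.8, 76.4 and 112.0 CPM, X2 46.4 and 74.8, and Xins 6.47 to 8.51. X1 was above Xins by log2 3.23 ± 0.27 and X2 above Xins by 2.71 ± 0.29. Between X2 and X1 the difference was −0.52 ± 0.31, and the ranges overlapped.

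K12877 (MAGOH in human) varied widely between libraries of 1 fraction. Unperturbed X1 libraries held 176.9, 360.5 and 328.6 CPM, X2 114.6 and 148.9, and Xins 39.3, 74.8, 56.4 and 84.9. In X1 and Xins control library 1 was the lowest, and the 3 fractions did not overlap. In knockdown cells X1 held 132.1, 280.2, 131.6 and 463.9 CPM and Xins 34.6, 77.2, 39.0 and 70.7, a log2 difference of 2.03 ± 0.44. X2, whose RNAi libraries are all numbered 1, held 77.8 CPM after *bruli* and 171.9 after *mbnl* RNAi. Against both numbers together X2 was at −1.18 ± 0.55 from X1 and 0.85 ± 0.51 from Xins. These values mix the numbers, between which K12877 differed. Against libraries numbered 1 alone, 1 library a group, X2 was above Xins by log2 1.54 (control), 1.17 (*bruli*) and 2.14 (*mbnl*). Against X1 it was at −0.63 (control) and −0.76 (*bruli*) but on the other side, at 0.39, after *mbnl* RNAi.

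In the knockdown libraries 4 of the 5 transcripts passed the filter on low values. Of the 12020 transcripts that passed, 37.1% were called higher in X1 than in Xins, 16.5% lower in X2 than in X1 and 24.7% higher in X2 than in Xins, and nothing is read from these shares about the members, which were chosen on such differences. Within each treatment and library number, X1 stood above Xins for the 4 transcripts in all 6 comparisons, by 3.08 to 4.45 for K12845, 2.56 to 4.11 for K12834, 1.85 to 3.76 for *SNRPD2* and 1.75 to 2.71 for K12877. The shift of K12877 between numbers was thus shared by X1 and Xins. The highest value of each of the 4 came from *mbnl* libraries 2.

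**Figure D2:**
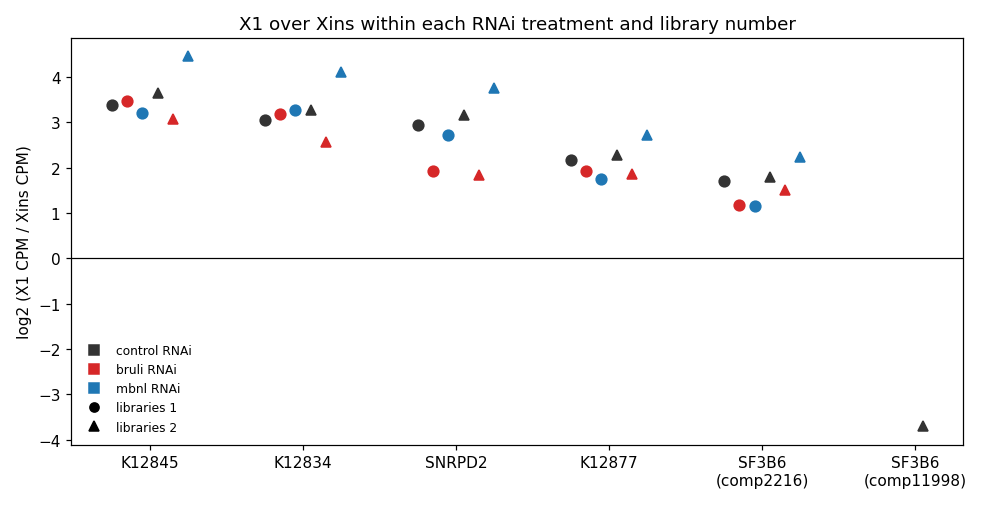
Log2 of the CPM in X1 over that in Xins for the library of the same treatment (colour) and number (circles 1, triangles 2). The 4 transcripts on the left and the other *SF3B6* transcript lie above 0 in all 6 comparisons, and comp11998 could be placed only for control libraries 2 (−3.70), since the other X1 libraries had 3 counts or fewer.

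The *SF3B6* transcript comp11998 was the one member with the opposite direction. It had 2, 4 and 2 counts in unperturbed X1 libraries and 0 to 2 in the knockdown ones, 13 in all 7 together. In X2 it had 10 counts in the control and 2 in each of the remaining 3 libraries. Xins held 1.35 and 2.16 CPM (control), 1.36 and 4.35 (wild type), 1.15 and 4.91 (*bruli*) and 0.72 and 3.51 (*mbnl*), 704 counts in all. All 8 Xins libraries were above all X1 and X2 libraries. The pooled rate in Xins was 32.1 times that in X1 and 15.3 times that in X2. In knockdown libraries alone, where it failed the filter, the pooled ratio to X1 was 54.5 and rests on 5 X1 counts.

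A second transcript with the same best human hit, comp2216, had the direction of the other 4. It held 78.5, 96.1 and 85.8 CPM in unperturbed X1, 71.02 and 57.96 in X2 and 24.1, 27.7, 20.6 and 26.6 in Xins. In knockdown cells X1 exceeded Xins by log2 1.55 ± 0.42, given without a test as for the members. Those X1 libraries held 46.8, 83.7 (*bruli*), 30.7 and 135.6 CPM (*mbnl*), and Xins 13.7 to 29.5. Like K12877, comp2216 was higher in library 2 in all 6 RNAi groups, by log2 0.20 to 2.14. Per kilobase of mappable positions, comp11998 made up 0 to 0.311% of the signal of both transcripts in X1 (median 0.131%), 0.140 to 0.814% in X2, 6.51 to 18.1% in Xins (median 8.68%) and 5.13 to 9.30% in whole worms. comp2216 thus held most of the signal in every library, and the share of comp11998 did not overlap between Xins and X1 or X2. Whether reads are shared between these transcripts was not tested.

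**Figure D3:**
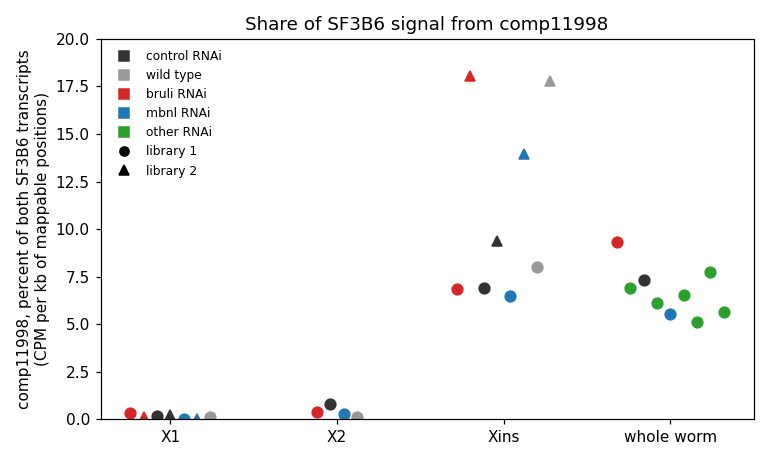
Share of comp11998 in the summed CPM per kilobase of both *SF3B6* transcripts, in percent, for each of 28 libraries by fraction (colour, treatment; circles and triangles, library 1 and 2). X1 and X2 libraries stay at or below 0.814%, and Xins libraries lie between 6.51 and 18.1%.

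Levels of different transcripts are compared per kilobase of mappable positions. In unperturbed X1 the order was K12877 (529 ± 180 CPM per kilobase, SD, n = 3), K12845 (374 ± 20.3), *SNRPD2* (351 ± 21.0), K12834 (202 ± 10.2) and comp11998 (0.309 ± 0.110). K12845 and *SNRPD2* did not differ beyond their spread, and K12877 overlapped both (324 to 660). In Xins (n = 4) it was K12877 (117.0 ± 37.0), *SNRPD2* (39.1 ± 4.13), K12845 (32.6 ± 4.77), K12834 (20.5 ± 4.31) and comp11998 (6.35 ± 3.90). There *SNRPD2* (33.7 to 43.0) and K12845 (26.3 to 37.5) overlapped, so their order is not settled in either fraction.

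Whole worms, which hold all cell types, were not between the fractions for every member. *SNRPD2* (23.7 to 40.7 CPM, median 36.3, 9 libraries) and K12845 (19.4 to 35.6, median 31.2) lay above all Xins libraries and below all X2 libraries. K12834 (7.85 to 16.4, median 13.3) overlapped with Xins, and K12877 (75.4 to 113.6, median 97.6) with X2 and Xins. comp11998 (1.32 to 2.35 CPM, median 1.82) lay within the Xins range.

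**Figure D4:**
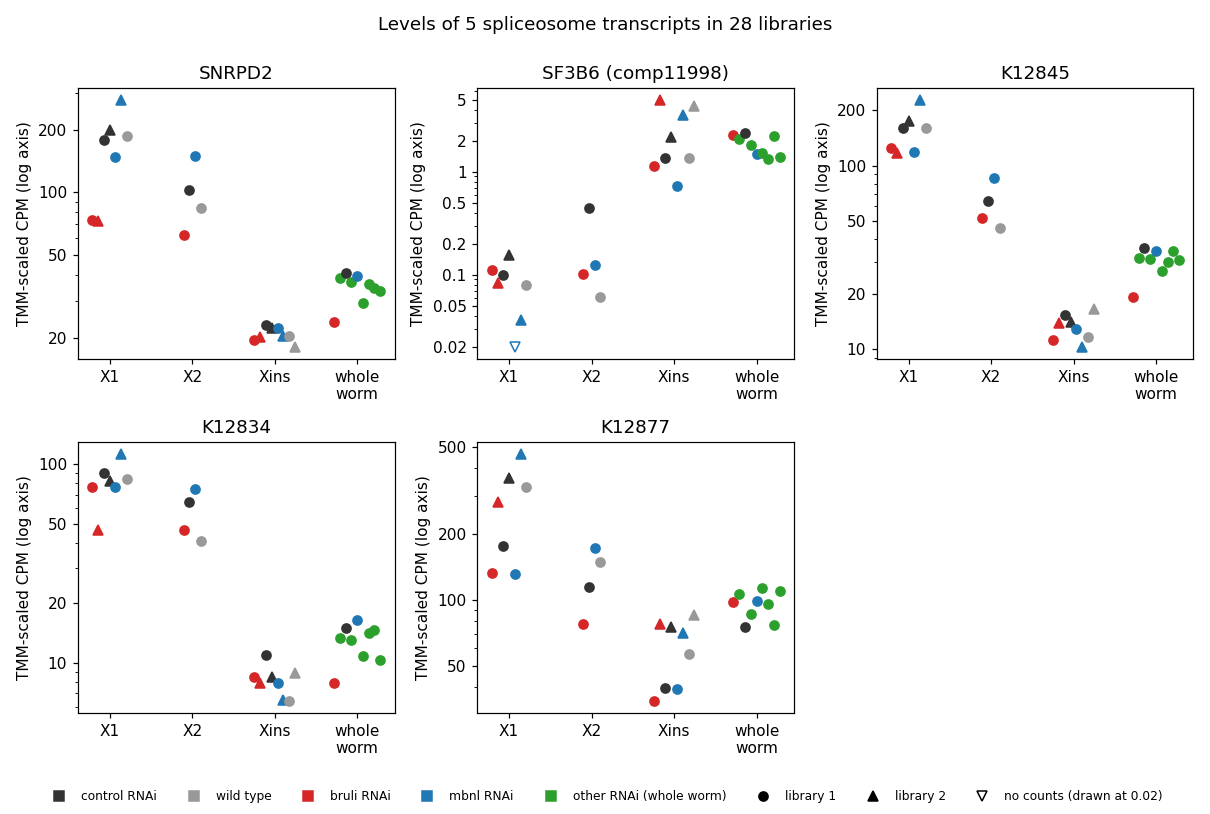
TMM-scaled CPM (log axis) of the 5 transcripts in each library of X1, X2 and Xins cells and whole worms, coloured by treatment (circles and triangles, library 1 and 2; an open triangle marks a library with no counts). Levels of 4 transcripts are lower in Xins than in X1, and comp11998 is higher there (0 to 0.157 CPM in X1, 0.72 to 4.91 in Xins).

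Partners of the members showed mostly the same direction. Their lists were chosen with fraction levels of these data known, so the counts called below are a description and not a test of the lists. In knockdown cells the median log2 difference of X1 over Xins was 2.07 over 72 other core spliceosome transcripts (70 higher, none lower), beside −0.04 over all transcripts, of which 37.1% were higher. The other 6 Sm ring transcripts were all higher (median 2.61, from *SNRPG* at 2.20 to *SNRPN* at 3.28), and so were the 6 tested LSm transcripts, whose ring binds U6 snRNA (1.79). All 7 SF3a and SF3b transcripts were higher (median 2.18, from K12827 at 1.41 to *SF3B4* at 2.88). Of 14 transcripts of the U4, U6 and U5 particle 12 were higher (2.42). K12852, whose human product is the U5 GTPase EFTUD2, led at 3.40, and K12859, whose human product is TXNL4A, was at 0.05 ± 0.25. All 10 exon junction and export transcripts were higher (2.24). Among these *RBM8A*, whose human product pairs with MAGOH, was higher by 2.28 ± 0.23 and 2 transcripts of the helicase *EIF4A3* by 1.40 ± 0.29 (comp4100) and 2.54 ± 0.22 (comp737). The 5 tested transcripts of U1 and the early complex were higher too (2.40, from *LUC7L* at 1.11 to *SNRPA* at 3.16). With both knockdowns pooled, K12845, at 3.49, was above the highest of its list, and K12834, at 3.23, was above the highest SF3 transcript. *SNRPD2*, at 2.49 when pooled, was within the span of the Sm ring. These differences from the lists were not tested.

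In the comparisons with X2 fewer partners were called, and fewer of all transcripts too (16.5% lower than X1 and 24.7% higher than Xins). Against X1 of knockdown cells, 3 of 6 Sm ring, none of 6 LSm, 2 of 7 SF3, 5 of 14 of the U4, U6 and U5 particle, 1 of 10 exon junction and none of 5 U1 transcripts were lower and none was higher, in all 18 of the 72 other core transcripts (median −0.69, beside −0.09 over all transcripts). Against Xins, 5 of 6, 3 of 6, 6 of 7, 12 of 14, 10 of 10 and 5 of 5 were higher, in all 63 of 72 (median 1.47). *RBM8A* was at 189.6 and 162.5 CPM in unperturbed X2, 256 to 298 in X1 and 46.2 to 70.7 in Xins.

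After *bruli* RNAi, *SNRPD2* had the largest estimated difference of the members in X1. It went from 177.6 and 200.1 CPM in control X1 to 73.8 and 72.9, a log2 of −1.37 ± 0.28 (95% interval −1.99 to −0.75, lower in both libraries). With 2 libraries a group this did not pass (adjusted p = 0.200; edgeR's quasi-likelihood test, unadjusted 0.000657). In the same 4 libraries the knocked-down *bruli* went from 929 and 1197 CPM to 116.8 and 161.5. DESeq2 called *SNRPD2* (adjusted p = 0.000483), and so did edgeR with a term for library number, the replicate block (adjusted p = 0.0369). Over all 17 alternatives the log2 difference was −1.47 to −1.28 and the adjusted p 0.000483 to 0.883, 2 of them under 0.05. The other Sm ring transcripts in X1 were at −0.89 to −0.17 (median −0.40), the 72 other core transcripts at a median of −0.17, and all transcripts at 0.01. No comparison of *SNRPD2* with its ring was tested.

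In Xins *SNRPD2* was at 23.0 and 22.3 CPM with control and 19.5 and 20.2 CPM with *bruli* RNAi (log2 −0.19, interval −0.80 to 0.42). The difference between the X1 and Xins effects was −1.18 ± 0.38, which did not pass (adjusted p = 1.00, unadjusted 0.0125). In X2, 1 library each, it was 103.1 CPM in the control and 62.0 after *bruli* RNAi, and in whole worms 40.7 and 23.7 CPM. The sum of the neoblast markers was lower too in X1, X2 and whole worms. It was 12182.5 and 12230.5 CPM in control X1 against 4986 and 5339 after *bruli* RNAi (4 of 4 markers lower). In X2 it was 3806 against 1864, and in whole worms 1326 against 652. In Xins, where *SNRPD2* was at log2 −0.19, that sum was also lower, at 405.7 and 709.3 CPM against 339.8 and 377.4. The sum of the 5 differentiation markers was 43.3 and 53.0 CPM in control X1 against 45.9 and 46.5, most of it from *ELAVL4* comp10994 (30.4 and 44.5 against 24.3 and 35.6), while edgeR's estimates for the other 4 were 0.10 to 0.76 and none was called. The sum was 114.2 against 140.8 in X2, and 125.1 against 117.4 in whole worms. The study reports, from its cell sorting, that neoblasts were not yet fewer after *bruli* RNAi at this time of sampling. In RNA pooled from many cells, sorted or not, fewer cells of a type and less RNA per cell cannot be told apart. The part of cell composition in the *SNRPD2* values was not tested.

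**Figure D5:**
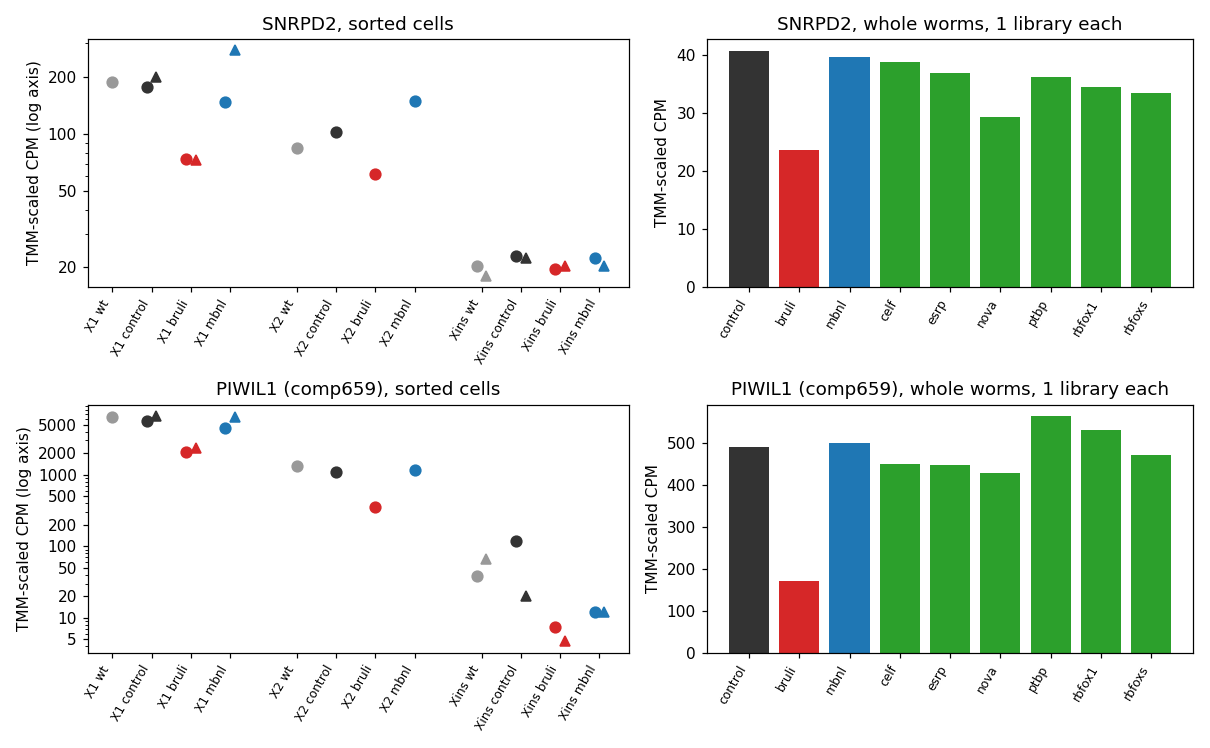
TMM-scaled CPM of *SNRPD2* (top) and of the neoblast marker *PIWIL1* comp659 (bottom), in sorted cells (left, log axis; circles and triangles, library 1 and 2) and whole worms (right, linear axis from 0). *SNRPD2* stands at 73.8 and 72.9 CPM in X1 after *bruli* RNAi, below the 147.4 to 276.5 CPM of the other 5 X1 libraries.

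The remaining members with enough counts had smaller estimated differences after *bruli* RNAi in X1. K12845 went from 160.3 and 176.0 to 124.9 and 117.3 CPM (log2 −0.48 ± 0.29), and K12834 from 90.0 and 81.8 to 77.03 and 46.8 (−0.47 ± 0.30). Neither difference passed by edgeR (adjusted p = 0.911 and 0.933). K12877 overlapped its controls (−0.39 ± 0.68). In Xins the estimates of these 3 were −0.23 to −0.04, and comp11998, at 1.35 and 2.16 CPM in the control and 1.15 and 4.91 after *bruli* RNAi, overlapped (0.79 ± 0.82).

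After *mbnl* RNAi *SNRPD2* held 147.4 and 276.5 CPM in X1, on both sides of its control (log2 0.13 ± 0.27), and 22.4 and 20.4 in Xins (−0.06 ± 0.27). K12845 (119.3 and 226.7 CPM) and K12834 (76.4 and 112.0) also lay on both sides of their X1 controls, as did K12877 (0.09 ± 0.68). In X1 comp11998 had 0 and 1 counts, against 2 and 4 in the control. In Xins K12845 was at 12.8 and 10.3 CPM (−0.32 ± 0.29) and K12834 at 7.89 and 6.47 (−0.40 ± 0.30), and neither difference passed (adjusted p = 1.00 for each). By edgeR without the block none of the 5 transcripts was called in the 4 comparisons of RNAi with control. None was called in the 2 comparisons of effects between X1 and Xins either. In each of these, 0% of 12494 transcripts were called. DESeq2 and edgeR with the block called *SNRPD2* after *bruli* RNAi in X1, as given above. The knocked-down *bruli*, *mbnl-1* and *mbnl-like-1* were not called either, so a missing call does not show an absence of change. After its RNAi *bruli* was at log2 −2.94 ± 0.35 in X1 and −2.15 ± 0.34 in Xins. After *mbnl* RNAi *mbnl-1* was at −0.62 ± 0.27 and −1.17 ± 0.27, and *mbnl-like-1* at −1.09 ± 0.33 and −2.22 ± 0.35. At an unadjusted p under 0.05, edgeR gave 890 transcripts for *bruli* in X1, 79 for *bruli* in Xins, 212 for *mbnl* in X1 and 202 for *mbnl* in Xins, and 343 and 107 for the differences of the *bruli* and *mbnl* effects. DESeq2 called 109, 7, 1, 2, 7 and 0 and limma 3, 0, 0, 0, 0 and 0.

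X2 RNAi libraries were compared by log2 of (cRPKM + 1), 1 library a group, with no test. After *bruli* RNAi *SNRPD2* was the only member past 0.7, and only just, at −0.70 (86.3 against 141.2 cRPKM), where 5.23% of 10459 transcripts were lower by that much. K12877 was at −0.53, K12834 at −0.45 and K12845 at −0.29, while comp11998, with 2 counts against 10, failed the filter. After *mbnl* RNAi no member was past 0.7 (−0.66 to 0.26), with 16.6% of all transcripts past it either way. TMM-scaled CPM, an alternative chosen after seeing the data, moved the median of all transcripts in that comparison by 0.29, from −0.20 to 0.10, and turned K12834 from −0.11 to 0.21.

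In whole worms, 1 library each, whether a member passed 0.7 depended on the scaling. On the cRPKM scale none did in any of 8 knockdowns, where 6.05% (*bruli*), 3.17% (*celf*), 1.29% (*esrp*), 1.70% (*mbnl*), 3.25% (*nova*), 1.22% (*ptbp*), 0.803% (*rbfox1*) and 3.08% (*rbfoxs*) of 12572 transcripts were. The *bruli* library had the lowest level of the 9 for *SNRPD2* (23.7 CPM, the next being *nova* at 29.4), K12845 (19.4, next 26.6) and K12834 (7.85, next 10.3). On the cRPKM scale these 3 were at −0.54, −0.64 and −0.68. With TMM-scaled CPM they were at −0.76, −0.85 and −0.85, all past 0.7, where 3.9% of transcripts were past it and the median of all transcripts was −0.10 instead of 0.12. K12877 was higher than the control library in all 8 knockdowns (0.02 to 0.60, and likewise with TMM-scaled CPM), and these share that 1 control, which at 75.4 CPM was the lowest of the 9. *SNRPD2* was within 0.26 of the control in 6 knockdowns and at −0.49 after *nova* RNAi.

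Among 350 other transcripts of RNA-binding proteins and the core spliceosome, the closest pattern to each member was taken as the smallest root mean square difference of log2(CPM + 0.5) over 28 libraries, after removal of each transcript's mean. For K12845 these were the Sm transcripts *SNRPD1* (0.25) and *SNRPN* (0.25), beside a median of 0.76 over the list. For *SNRPD2* they were *KHDRBS2* (0.26) and *TIA1* (comp3605, 0.27; median 0.63), and for K12834 *TRA2B* (0.25) and the same *TIA1* transcript (0.27; 0.74). For K12877 they were *LSM8* (0.26) and *RBM48* (0.31; 0.72). For comp11998, whose X1 levels lie under that pseudocount, they were 2 *DHX8* transcripts (comp7940 at 0.53 and comp12329 at 0.55; 1.82). The libraries share their fraction and number, so these are descriptions without a test.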

How the data were processed

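The authors mapped the reads with Bowtie (version not given in the sources used here) to a de novo transcriptome and deposited 2 values per transcript and library: raw counts and cRPKM, an RPKM over mappable positions. Blank count cells, 48924 in all and each with a cRPKM of 0, were read as 0. No sequence or coordinates were used here. The members and lists were chosen with earlier results of these data known, fraction levels among them. Fraction differences of members are thus given without a test, also in knockdown libraries, where a test had been planned. Counts of list transcripts called between fractions are likewise a description. Transcripts with a mean log2(cRPKM + 1) over 1.5 in the libraries of a fit were kept, and edgeR 4.0.16 (quasi-likelihood test, TMM; R 4.3.3) was fitted to the deposited counts of all transcripts, two-sided, with Benjamini-Hochberg adjustment and a call under 0.05. One fit held the 9 sorted libraries with control RNAi or none, called unperturbed, 1 the 10 sorted knockdown libraries (fraction and treatment), and 1 the 12 X1 and Xins RNAi libraries in 6 groups of 2. X2 and whole-worm RNAi have 1 library a group, and log2 of cRPKM with a pseudocount of 1 is given, which understates changes of low transcripts. Intervals of fold differences are from the t distribution and cover 95%. The fits of the sorted knockdown libraries and of the X1 and Xins RNAi libraries were checked on simulated counts. These held no shift by library number, so the check does not cover such a shift. Alternatives were DESeq2 1.42.0, its size factors, limma 3.58.1 on log2(cRPKM + 1), no filter, each library left out, a replicate block and, for single libraries, TMM-scaled CPM, which was added after seeing the data. One of the 6 chosen transcripts is not reported here. Named were the other 5, fixed partner lists by counts with their lowest and highest transcript, and the 2 closest patterns of each member. Nothing says that libraries of a group came from separate worms, so p-values may measure technical spread. Kilobase levels use mappable positions derived from counts and cRPKM.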

Additional observations from a re-analysis of the deposited data

How the results depend on the processing

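Of 480 alternative values of single members in the tested comparisons of RNAi with control and of these effects between X1 and Xins, 445 kept their direction and their side of the threshold. No paired design is stated. Same-numbered RNAi libraries deviated from their group means with correlations of 0.041 to 0.725, over 0.1 in 14 of 15 pairs. Most of these groups thus shared a shift by number, for which the main fits have no term. For *mbnl* in X1 the standard error of K12877 was 0.68 in the main fit and 0.22 with the replicate block. With the replicate block 128 transcripts were called for *bruli* in X1, *SNRPD2* among them (−1.36, adjusted p = 0.0369), and K12877 in X2 of knockdown cells was at 1.55 from Xins, beside 0.85 without the block, and no test is given. With the block, *mbnl* in X1 gave −0.028 for K12877 and −0.014 for K12845, and the difference of *mbnl* effects gave −0.010 for K12877, all turned in sign.

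Counts over all transcripts moved more. DESeq2 called 109 for *bruli* in X1, 7 in Xins, 1 and 2 for *mbnl*, and 7 for the difference of *bruli* effects, and limma 3 for *bruli* in X1. Without a filter 14032 transcripts differed between X1 and Xins of knockdown libraries. Leaving out 1 library gave 2629 to 5244 for X2 against X1, 3909 to 6878 for X2 against Xins and 0 to 3 for *bruli* in Xins. Among unperturbed libraries, wild type alone gave 6803 for X1 against Xins, 0 for X2 against X1 and 2179 for X2 against Xins, and control alone 2100 and 2166 for X2 against X1 and Xins. Past 0.7 without a filter were 1487 (*bruli*) and 2661 (*mbnl*) in X2, and in whole worms 1786 (*bruli*), 788 (*celf*), 526 (*esrp*), 607 (*mbnl*), 868 (*nova*), 626 (*ptbp*), 434 (*rbfox1*) and 851 (*rbfoxs*). A pseudocount of 0.1 gave 304 (*esrp*), 393 (*mbnl*), 310 (*ptbp*) and 207 (*rbfox1*), and CPM 96 (*esrp*), 142 (*mbnl*) and 45 (*rbfox1*). TMM-scaled CPM, added after seeing the data, gave 490 (*bruli*), 81 (*esrp*), 127 (*mbnl*) and 48 (*rbfox1*), and put *SNRPD2*, K12845 and K12834 past 0.7 in whole worms after *bruli* RNAi. The cause of these shifts was not tested.

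Signs turned with limma, which used cRPKM, for *mbnl* in X1 (K12877 −0.18, K12845 −0.18, K12834 −0.041, *SNRPD2* −0.051), in Xins (*SF3B6* −0.087) and for the difference of effects (K12877 −0.011). With 1 library left out, *bruli* values ranged from −1.03 to 0.22 for K12877 in X1 and −0.74 to 0.55 for K12877 in Xins, and −0.99 to 0.35 for K12877 and −0.66 to 0.066 for K12834 in the difference. Those of *mbnl* in X1 ranged from −1.01 to 0.71 (K12877), −0.47 to 0.36 (K12845), −0.14 to 0.31 (K12834) and −0.33 to 0.48 (*SNRPD2*), in Xins from −0.54 to 0.54 (K12877) and −0.16 to 0.0060 (*SNRPD2*), and in the difference from −0.96 to 0.75 (K12877), −0.15 to 0.68 (K12845) and −0.27 to 0.53 (*SNRPD2*). *SF3B6* in unperturbed X2 against X1, 0.88 with all libraries, was −0.88 without the X2 control library. Depth limits *SF3B6* in X1 and X2, where 13 and 16 counts stand behind its levels.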
